A study of Homo sapiens with 12 samples.

Results

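The DDX and DHX RNA helicases were examined as a family: every gene of the splicing table whose symbol is DDX or DHX followed by a number and at most 1 letter, with DHX15 and DDX39B left out by that rule. This gave 51 genes of 30275 in the table. They held 3335 of its 721551 splicing events, of which 2548 had 20 or more reads in all 12 samples. The samples are MEC1 cells, an established B cell line from chronic lymphocytic leukemia, with or without the K700E substitution in SF3B1, the U2 snRNP protein that helps to recognise the branch site upstream of a 3′ splice site. Cells were given H3B-8800, an inhibitor of splicing directed at SF3B1, at 75 nM for 6 h, or DMSO, and poly(A) RNA was sequenced.

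There were 4 groups with 3 samples each: K700E cells with H3B-8800, K700E cells with DMSO, WT cells with H3B-8800 and WT cells with DMSO. The 3 K700E samples carry different culture names and both c.2098A>G and c.2106G>A in SF3B1. WT replicates 1 and 2 carry neither change, and WT replicate 3 carries c.2106G>A only. With c.2106G>A in only 1 WT culture, editing and cloning cannot be told apart from K700E in a comparison of the genotype groups. Each named culture was sampled with and without H3B-8800. The files held 45840233 to 56676172 spliced reads per sample, and the median tested helicase event had 335 to 487.785 reads, with the lower depths in the H3B-8800 samples. All 10 B cell markers were detected and summed to 3780 to 7130 RPM (spliced reads scaled to a common library total). Of the other markers, 2 of 7 of T and NK cells, 1 of 6 of myeloid cells and 4 of 6 of fibroblasts and epithelium reached 1 RPM in a sample, with sums of at most 36.2, 1.72 and 20 RPM; their part in the results was not tested.

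DEAD box (DDX) and DEAH box (DHX) proteins use ATP to unwind or remodel RNA and RNA-protein complexes. Their 2 RecA-like domains carry conserved motifs, and motif II, the DEAD or DEAH box itself, binds the magnesium and water used in ATP hydrolysis. Several drive the spliceosome from step to step, and others act in ribosome assembly, mRNA export, translation and decay. DDX46 and DDX42 are known to bind the SF3B complex.

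Sequences are shown for the exons and introns on which the largest differences fall, read from GENCODE 29 transcripts on GRCh38, 5′ to 3′ on the gene's strand. The exons with the largest loss are given first, with their first and last 3 bases in capitals, at chr20:39028418-39028499 (DHX35, plus strand), chr2:38818877-38818960 (DHX57, minus), chr12:123605931-123605981 (DDX55, plus) and chr1:111760987-111761125 (DDX20, plus). Of these, the DHX57 and DDX55 exons are a multiple of 3 in length, at 84 and 51 bases, and the DHX35 and DDX20 exons are not, at 82 and 139 bases.
DHX35: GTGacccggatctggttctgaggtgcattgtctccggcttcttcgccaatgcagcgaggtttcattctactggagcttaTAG
DHX57: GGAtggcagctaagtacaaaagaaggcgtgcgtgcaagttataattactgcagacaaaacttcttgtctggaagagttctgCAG
DDX55: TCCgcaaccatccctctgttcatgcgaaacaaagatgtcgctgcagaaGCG
DDX20: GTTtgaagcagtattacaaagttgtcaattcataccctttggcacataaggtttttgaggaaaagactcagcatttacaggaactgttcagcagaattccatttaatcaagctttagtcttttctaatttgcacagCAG

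Among the introns with the largest gain in retention, 4 are shown whole, with the first and last 2 bases in capitals. Each lies inside an exon of an annotated transcript, from which its bases were read. They lie at chr12:132141957-132142118 (DDX51, intron 5, minus strand), chr5:177515822-177515928 (DDX41, intron 5, minus), chr12:48836795-48836893 (DDX23, intron 9, minus) and chr3:47847957-47848179 (DHX30, intron 14, plus). All 4 begin with GT and end with AG, and lie within the coding part.
DDX51: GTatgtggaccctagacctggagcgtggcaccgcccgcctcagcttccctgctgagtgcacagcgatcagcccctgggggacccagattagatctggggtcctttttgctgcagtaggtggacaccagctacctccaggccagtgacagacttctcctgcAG
DDX41: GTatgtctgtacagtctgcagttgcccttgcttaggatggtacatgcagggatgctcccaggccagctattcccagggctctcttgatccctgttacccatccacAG
DDX23: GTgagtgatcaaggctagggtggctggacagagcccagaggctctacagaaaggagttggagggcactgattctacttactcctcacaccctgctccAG
DHX30: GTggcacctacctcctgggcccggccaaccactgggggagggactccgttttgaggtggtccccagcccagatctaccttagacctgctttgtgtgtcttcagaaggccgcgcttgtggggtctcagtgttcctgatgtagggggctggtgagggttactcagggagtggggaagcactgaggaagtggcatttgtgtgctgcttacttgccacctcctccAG

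After H3B-8800, exons of the helicase genes were skipped and their introns retained, in both genotypes. An event was tested where it also averaged 1 to 99%, which left 826 events in 45 genes. These were 271 exons, 406 introns, 83 alternative acceptor (3′) sites and 66 alternative donor (5′) sites, after introns with unbalanced junction reads had been left out. It was called where limma gave an adjusted p under 0.05 over all 109076 events and the group means differed by 10 percentage points or more. In K700E cells 279 events in 41 genes were called, against 31.3% of all events, and in WT cells 283 events in 42 genes, against 32% of all events. The share of helicase events called, 33.8% in K700E cells and 34.3% in WT cells, was thus near the background.

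Exon calls went almost all one way. In K700E cells 113 of 271 exons fell and 2 rose, where 38.5% of all exons fell and 0.443% rose, and in WT cells 119 fell and 3 rose, where 40.3% fell and 0.501% rose. The median exon difference was −6.96 points in K700E and −7.68 points in WT, against −6.47 and −6.88 points over all exons. Introns went the other way: 143 of 406 rose and 1 fell in K700E, and 142 rose and 0 fell in WT, where 31.6% and 31.9% of all introns rose and 0.363% and 0.361% fell (limma; 361 helicase introns in WT had an unadjusted p under 0.05 in either direction). Their median difference was 5.99 points in K700E and 5.16 points in WT, against 5.02 and 4.92 points over all introns. Of the alternative 3′ sites 10 were called in K700E and 7 in WT, where 12.2% and 9.24% of all such sites were, and of the alternative 5′ sites 10 and 12, where 5.59% and 7.06% were. The median called exon loss was 24.2 points in K700E and 25.4 points in WT, and the median called intron gain 20.2 and 20.5 points.

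The mean level over the 271 helicase exons was 72.6, 72.3 and 73.2% in the 3 K700E samples with H3B-8800, against 87.0, 87.2 and 86.7% with DMSO. In WT it was 71.0, 72.1 and 71.6% with H3B-8800, against 87.0, 87.0 and 86.8% with DMSO. The groups did not overlap in either genotype. Mean intron retention was 14.7, 15.6 and 13.2% in K700E with H3B-8800, against 3.53, 3.41 and 3.46% with DMSO, and 13.5, 14.6 and 15.4% in WT with H3B-8800, against 2.66, 3.40 and 3.48% with DMSO. Each of these comparisons reached p = 0.1 in a two-sided exact permutation test, the smallest that 3 against 3 samples allow. The 1 to 99% filter used the mean of all 12 samples and left 271 of 734 helicase exons with enough reads. An exon above 99% in all DMSO samples could pass only if it was lower with H3B-8800, and an intron below 1% only if it was higher. The gaps, the lack of overlap and the p-values are thus partly set by the filter. The mean over all 734 exons was not computed.

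**Figure D1:**
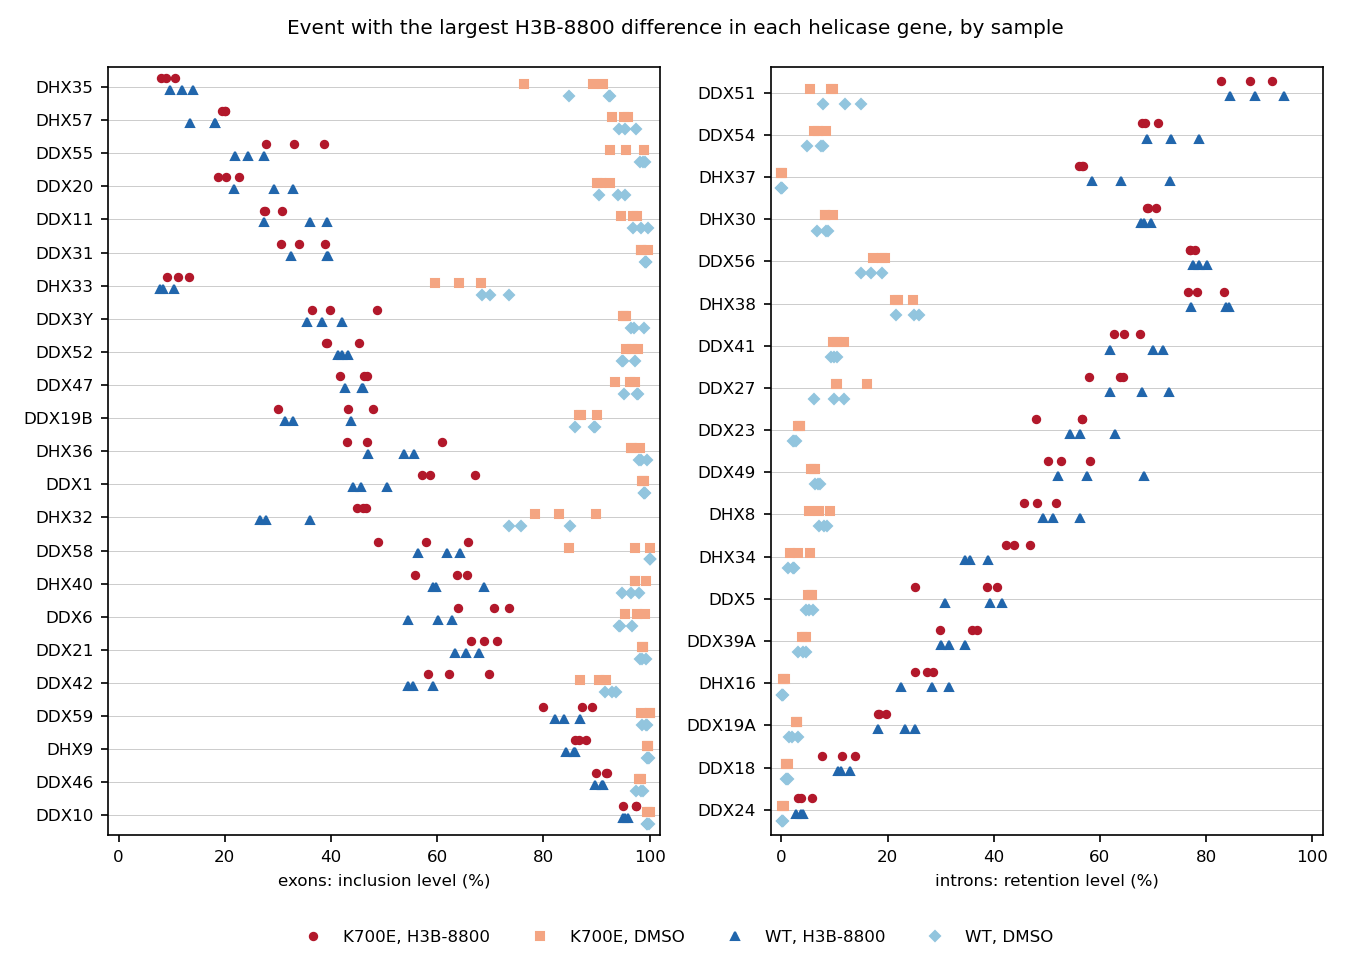
Level in percent of the exon (left) or intron (right) with the largest H3B-8800 difference in each helicase gene where that event is an exon or an intron, with 1 point per sample and 4 groups of 3. The H3B-8800 samples lie left of the DMSO samples for exons and right of them for introns, by most in DHX35 and DDX51 and by least in DDX10 and DDX24.

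The same events were called in both genotypes for the most part: 252 events, 90.3% of the K700E calls and 89.0% of the WT calls, all in the same direction. By number DDX11, DDX31 and DHX30 had the most, with 21 of 57, 16 of 35 and 15 of 34 tested events in K700E and 24, 16 and 15 in WT. DDX23 had 11 of 14 in K700E and 10 in WT, and DHX33 10 of 15 and 11. DDX11, a DNA helicase of sister chromatid cohesion, has near-identical copies in the genome that can share reads, so its values are uncertain. DDX10 (2 tested events), DDX24 (3) and DDX46 (15) had no call in either genotype. DDX25, DDX4, DDX43, DDX60, DDX60L and DHX58 had no tested event.

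**Figure D2:**
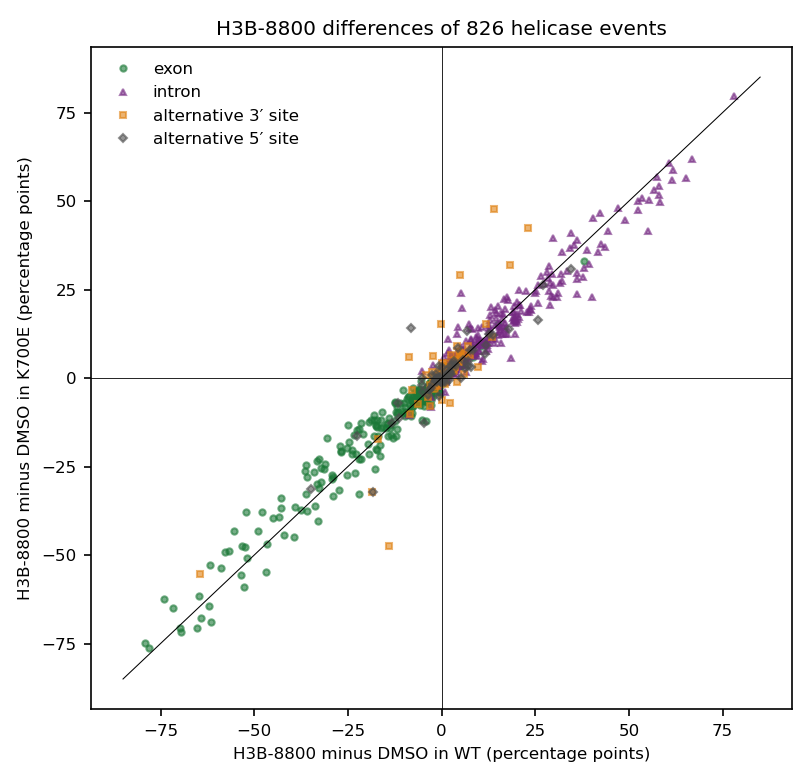
Difference in level between H3B-8800 and DMSO samples, in percentage points, in K700E (vertical) and WT (horizontal) for all tested helicase events, coloured by type, with a line of equal difference. Exons lie at the lower left and introns at the upper right, close to the line, and alternative 3′ sites of DHX29, DDX56, DHX38 and DDX27 lie above it.

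Among the helicases grouped here as spliceosomal, 22 of 64 exons fell and 36 of 108 introns rose in K700E, and 23 and 38 in WT. Of all tested exons 38.5% fell in K700E and 40.3% in WT, and of all introns 31.6% and 31.9% rose. The 11 genes of the group include DHX40, DHX32 and DDX39A, so its counts are not those of core spliceosome helicases alone. DHX35, found in catalytic spliceosomes, had the largest exon loss of this group. Its exon 19 was included at 10.7, 8.96 and 8.05% in K700E with H3B-8800, against 91.1, 89.3 and 76.4% with DMSO. In WT it was included at 9.59, 14 and 11.9% with H3B-8800, against 92.5, 92.4 and 84.7% with DMSO. All H3B-8800 samples were far below all DMSO samples, with adjusted p = 5.7e-07 in K700E and 4.1e-07 in WT (limma).

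DHX38, the PRP16 homologue that remodels the spliceosome between the 2 catalytic steps, kept its exon with the DEAH codons at 99.8% or more in every sample but retained the intron right after it. Intron 14 was retained at 83.4, 76.7 and 78.3% in K700E with H3B-8800, against 22, 21.3 and 24.8% with DMSO, and at 77.1, 83.8 and 84.3% in WT with H3B-8800, against 21.5, 25.9 and 25% with DMSO. The difference was 56.8 points in K700E and 57.6 points in WT. Its exon 6 fell by 26.5 points in K700E and 34 points in WT.

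The short introns of DDX41 and DDX23 printed above rose as well. DDX41, a helicase mutated in inherited myeloid neoplasms, retained its intron 5 at 64.9 ± 2.43% with H3B-8800 and 10.7 ± 1.08% with DMSO in K700E, and at 68 ± 5.33% and 10 ± 0.56% in WT (mean ± SD, n = 3 each). DDX23, the tri-snRNP helicase that helps to activate the spliceosome, retained intron 9 at 53.7 ± 4.94% with H3B-8800 and 3.38 ± 0.231% with DMSO in K700E, and at 57.7 ± 4.47% and 2.41 ± 0.287% in WT. DHX8, the PRP22 homologue that releases spliced mRNA, retained intron 19 at 41.4 points more in K700E and 44.3 points more in WT. DHX16, the PRP2 homologue, gained 26.5 and 27.3 points in intron 12, and DDX39A, a paralogue of an export helicase, 29.9 and 28.1 points in intron 7. Exons of these genes fell too: exon 12 of DDX41 lost 26.8 and 23.1 points, exon 7 of DDX23 23.5 and 33.3 points, exon 16 of DHX8 21.6 and 22.8 points, and exon 16 of DHX16 19.7 and 25.4 points. In DHX35, intron 9 rose by 22.3 and 16.7 points.

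The helicases known to bind the SF3B complex were DDX46 and DDX42. DDX46, the PRP5 homologue, had no difference of 10 points: its largest was in exon 10, included at 89.8, 91.8 and 91.9% in K700E with H3B-8800, against 98.4, 98 and 98.3% with DMSO, and at 89.7, 91.3 and 91.0% in WT with H3B-8800, against 98.4, 97.5 and 98.8% with DMSO. The groups did not overlap, and the adjusted p was 6.6e-06 in K700E and 3.4e-06 in WT (limma). DDX42 lost 26.3 points of exon 6 in K700E and 36.4 points in WT, and gained 13.4 and 15.6 points of the intron before it. DHX40 lost 36.2 and 33.9 points of exon 10 and gained 28.9 and 26.5 points of intron 8. DHX32 lost 37.9 and 47.9 points of a 48-base exon that lies inside an intron, outside the coding part, of its principal transcript. A DHX32 donor site rose by 11.8 points in WT and differed by 9.45 points, short of a call, in K700E.

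Among the regulators of transcription and splicing, 14 of 27 exons fell and 11 of 54 introns rose in K700E, and 16 and 16 in WT. The shares over all tested events were 38.5% of exons and 31.6% of introns in K700E, and 40.3% and 31.9% in WT. DDX20, the gemin 3 subunit of the SMN complex that assembles snRNPs, included exon 6 at 18.7, 20.3 and 22.7% in K700E with H3B-8800, against 90.2, 90.8 and 92.6% with DMSO. In WT it did so at 21.6, 32.8 and 29.2%, against 95.4, 94 and 90.4% with DMSO. DDX1, which acts in tRNA ligation, lost 37.8 points of exon 23 in K700E and 52.2 points in WT. The test of the difference between the genotypes did not pass (adjusted p = 0.50, limma). DHX36, which unwinds G-quadruplexes, lost 46.8 and 46.6 points of exon 19. Introns rose in all 3: intron 8 of DDX20 by 21.9 and 17.7 points, intron 19 of DDX1 by 12.5 and 17.6 points, and intron 4 of DHX36 by 18.5 and 22.7 points.

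DDX5, a coactivator and splicing regulator, retained intron 9 at 29.4 points more in K700E and 32.0 points more in WT, and DHX9, RNA helicase A, lost 12.7 and 14.4 points of exon 3. For DDX17, the paralogue of DDX5, the event with the largest mean difference was an alternative 5′ site that rose by 13.3 points in K700E (adjusted p = 0.018) and differed by 6.87 points in WT (adjusted p = 0.098, limma). Its exon 5 was at 91.9 ± 1.04% with H3B-8800 and 99.95 ± 0.0057% with DMSO in K700E, under 10 points, and at 88 ± 1.63% and 99.95 ± 0.00573% in WT, a loss of 12 points. Exon 12 of DDX5 lost 22.1 and 16.6 points.

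Of the export, translation and decay helicases, 20 of 56 exons fell and 32 of 77 introns rose in K700E, and 21 and 25 in WT. The shares over all tested events were 38.5% of exons and 31.6% of introns in K700E, and 40.3% and 31.9% in WT. DHX57 included exon 19 at 20, 20 and 19.5% in K700E with H3B-8800, against 95.1, 96.0 and 92.9% with DMSO, and at 18.2, 13.5 and 18.1% in WT with H3B-8800, against 94.2, 95.4 and 97.5% with DMSO. DHX30, needed for mitochondrial ribosome assembly, retained intron 14 at 69.5 ± 0.884% with H3B-8800 and 8.68 ± 0.854% with DMSO in K700E, and at 68.6 ± 0.966% and 7.99 ± 1.16% in WT. DHX34, a factor of nonsense-mediated decay, gained 41 and 34.4 points of intron 12. DDX6, a decay and translational repression factor of P bodies, lost 27.9 points of exon 9 in K700E and 36 points in WT. DHX29 lost 19.2 and 27.2 points of exon 25, DHX30 43.2 and 55.3 points of exon 4, and DHX34 21.4 and 19.4 points of exon 6. DHX57 gained 19.6 and 16.9 points of intron 22. DDX19B lost 47.6 and 52.4 points of exon 2, and its paralogue DDX19A gained 15.9 and 20.1 points of intron 5. DDX3X, a translation initiation factor, gained 16.4 and 12.8 points of intron 7, and DDX3Y lost 53.7 and 58.9 points of exon 12 and gained 39.5 and 29.6 points of intron 10. Reads of DDX19A and DDX19B, and of DDX3X and DDX3Y, can be shared between the near-identical pairs, so these values are uncertain.

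The ribosome assembly helicases were the largest group, and 41 of 91 exons fell in each genotype, while 52 of 144 introns rose in K700E and 50 in WT. The shares over all tested events were 38.5% of exons and 31.6% of introns in K700E, and 40.3% and 31.9% in WT. DDX51, which acts in maturation of the large subunit, had the largest intron gain. Its intron 5 was retained at 82.8, 92.3 and 88.3% in K700E with H3B-8800, against 5.47, 9.73 and 9.39% with DMSO, and at 84.6, 89.2 and 94.7% in WT with H3B-8800, against 7.77, 15 and 12% with DMSO. DHX37, which releases the U3 snoRNA from the small subunit precursor, retained intron 7 at 56.9, 56.0 and 56.6% in K700E with H3B-8800, against 0.141, 0 and 0% with DMSO. In WT it did so at 58.4, 64 and 73.2%, against 0.139, 0 and 0% with DMSO. The 6 H3B-8800 samples lay at 56 to 73.2%, and no DMSO sample was above 0.141%.

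Further gains were 62 points in K700E and 66.8 points in WT in intron 14 of DDX54, 58.7 and 61.9 points in intron 9 of DDX56, 49.6 and 58.3 points in intron 12 of DDX27, and 47.6 and 52.5 points in intron 8 of DDX49. The largest exon losses of the group were 62.5 and 74.1 points in exon 2 of DDX55, 64.3 and 62.2 points in exon 8 of DDX31, 55.5 and 53.5 points in exon 14 of DDX52, 52.8 and 61.8 points in exon 2 of DHX33, and 50.8 and 52 points in exon 8 of DDX47. Second events of these genes were called as well: DDX31 used an exon 16 site 55.5 and 64.4 points less, and intron 2 of DDX55 rose by 46.5 and 42.1 points, exon 7 of DDX49 fell by 44.3 and 42.2 points, and exon 6 of DHX37 by 39.4 and 43.5 points. Exon 13 of DDX51 fell by 32.7 and 22.1 points, exon 5 of DDX27 by 30.9 and 32.6 points, and a site of DDX56 exon 8 by 31.2 and 34.7 points, while intron 3 of DHX33 rose by 24.6 and 28.8 points and a donor site of DDX54 exon 17 by 13.9 and 18.1 points. Intron 7 of DDX47 rose by 11.5 points in K700E and differed by 9.2 points, short of a call, in WT. DDX21 lost 29.8 and 33.1 points of exon 14. DDX18 gained 9.99 points of intron 10 in K700E, just short of a call, and 10.6 points in WT. DDX24 gained 3.96 and 3.30 points of intron 5, and DDX10 lost 3.14 and 4.19 points of exon 12. DDX50 is represented by an alternative 5′ site that rose by 25.8 points in WT (adjusted p = 0.011) and differed by 16.4 points in K700E (adjusted p = 0.056, limma), at 20 reads in the shallowest sample. An exon inside a DDX50 intron rose by 15.4 and 14.9 points.

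RIG-I (DDX58), a sensor of viral RNA, lost 36.5 points of exon 4 in K700E and 39.2 points in WT, and gained 19.4 and 23.5 points of intron 3, at 23 reads in the shallowest sample. DDX59 lost 14 and 14.8 points of exon 4. DDX11 lost 67.7 and 64.1 points of exon 19 and gained 53.1 and 56.6 points of intron 23, with the limit on shared reads given above.

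The exons holding the DEAD or DEAH box codons were set apart as a group because they encode the active site. Such an exon had 20 or more reads in all samples in 35 genes, and in 23 of them it was included at 97% or more in every sample. In 10 genes it averaged 99% or less and was tested. It fell in 5 genes in K700E and in 4 in WT, where 38.5% and 40.3% of all tested exons fell. The average took in all 12 samples, so an exon above 99% in all DMSO samples was tested only if lower with H3B-8800. The 10 tested exons are thus partly chosen by the H3B-8800 difference. Of the 35 measured exons, 5 fell in K700E and 4 in WT. The 5 lowered exons and 2 kept ones (DDX46 and DHX9) are printed with the motif II codons in capitals, which in DDX59 continue in the next exon. They lie at chr17:37625895-37626098 (DDX52, minus strand), chr20:49230199-49230349 (DDX27, plus), chr17:59573116-59573235 (DHX40, plus), chr1:200659027-200659116 (DDX59, minus), chr12:124971302-124971415 (DHX37, minus), chr5:134790470-134790552 (DDX46, plus) and chr1:182866961-182867043 (DHX9, plus).
DDX52: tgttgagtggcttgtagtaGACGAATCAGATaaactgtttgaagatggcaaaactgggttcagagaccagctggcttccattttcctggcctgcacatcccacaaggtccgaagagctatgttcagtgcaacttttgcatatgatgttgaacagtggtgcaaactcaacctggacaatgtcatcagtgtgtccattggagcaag
DDX27: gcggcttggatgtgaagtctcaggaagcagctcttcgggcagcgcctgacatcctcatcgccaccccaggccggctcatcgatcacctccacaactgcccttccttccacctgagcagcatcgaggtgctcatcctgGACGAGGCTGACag
DHX40: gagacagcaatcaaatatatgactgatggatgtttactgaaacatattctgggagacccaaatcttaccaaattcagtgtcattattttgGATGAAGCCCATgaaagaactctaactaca
DDX59: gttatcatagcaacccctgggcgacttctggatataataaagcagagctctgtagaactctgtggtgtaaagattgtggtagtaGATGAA
DHX37: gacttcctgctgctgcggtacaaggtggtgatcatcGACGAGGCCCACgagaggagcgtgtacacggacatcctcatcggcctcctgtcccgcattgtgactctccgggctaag
DDX46: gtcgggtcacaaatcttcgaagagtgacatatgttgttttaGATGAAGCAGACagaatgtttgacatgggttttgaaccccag
DHX9: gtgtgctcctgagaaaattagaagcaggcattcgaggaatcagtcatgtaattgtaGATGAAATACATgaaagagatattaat

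DDX52, a small subunit assembly helicase, included this exon at 79.3, 70.8 and 69% in K700E with H3B-8800, against 99, 99.4 and 97.1% with DMSO, and at 59.2, 68.7 and 68.8% in WT with H3B-8800, against 97.7, 98.3 and 97.5% with DMSO. The exon is 204 bases long, a multiple of 3. DDX27 included its exon at 85.1 ± 2.66% with H3B-8800 and 99.2 ± 0.275% with DMSO in K700E, and at 83.1 ± 2.93% and 99.2 ± 0.316% in WT. DHX40 lost 13.9 and 15.7 points and DDX59 14 and 14.8 points. DHX37 included the exon at 86.5, 87.7 and 89.5% in K700E with H3B-8800, against 100% in all 3 DMSO samples, and at 92.8, 96.2 and 98.2% in WT with H3B-8800, against 99.7, 100 and 100% with DMSO. The exons of DDX46, DDX55, DDX56, DHX16, DHX29, DHX30 and DHX8 stood at 100% in all 12 samples.

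**Figure D3:**
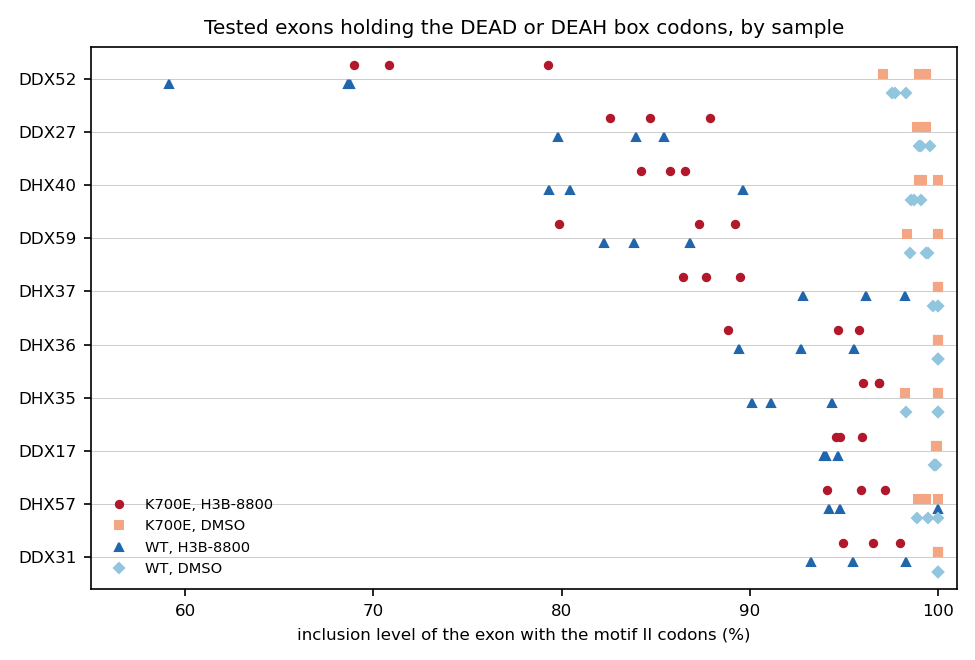
Inclusion level in percent, by sample, of the 10 tested exons that hold the DEAD or DEAH box codons, on an axis that starts at 55%. H3B-8800 samples of DDX52 lie between 59.2 and 79.3%, and DMSO samples of all 10 genes lie at 97.1% or above.

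Within the family, exons were also grouped by length and by position in the protein. Of 71 tested coding exons with a length divisible by 3, 53.5% fell in K700E and 52.1% in WT, and of 126 others, 50% and 50.8%. Exons between motif I and motif VI fell in 51.2% of 84 cases in K700E and 52.4% in WT, and other exons in 48.9% and 47.8% of 92. Introns were grouped by length into 4 classes with medians of 99, 272, 1076 and 3221 nt. The shortest rose in 47.1% of 85 cases in K700E and 49.4% in WT, the next in 42.3% of 97 in both, the third class in 31.9% and 30.5% of 141, and the longest in 20.5% and 19.3% of 83. The same classes were not counted over all exons and introns, so these shares cannot be read as particular to the helicases. They are descriptions, and no test was made of them.

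K700E against WT in DMSO called 4 helicase events, against 0.349% of all events, and all 4 were alternative 3′ sites in DHX29 and DHX35. The upstream and annotated sites of DHX35 exon 13 are counted separately, although their levels are parts of the same total. Of all alternative 3′ sites 2.62% were called. No helicase exon, intron or alternative 5′ site was called (limma), where 0.108%, 0.117% and 0.056% of all were. An unadjusted p under 0.05 was found for 38 exons, 40 introns, 7 alternative 5′ sites and 32 of 83 alternative 3′ sites. It was found for 2306 of all 10469 alternative 3′ sites. Alternative 3′ sites of DDX27, DDX3Y, DDX42, DDX46, DDX56 and DHX38, and another of DHX29, had an adjusted p under 0.05 (limma). They differed by under 10 points, so they were not called, and the groups did not overlap. In DHX29, which helps the small ribosomal subunit to scan structured leaders, a site 18 nt upstream of exon 20 was used at 15.4, 20.4 and 23.4% in K700E, against 2.2, 3.48 and 1.08% in WT (adjusted p = 0.0018, limma). The groups did not overlap. The 90-base intron before exon 20, at chr5:55270488-55270577 on the minus strand, shows this site, with the 18 bases that the upstream site adds to the exon in capitals.
DHX29: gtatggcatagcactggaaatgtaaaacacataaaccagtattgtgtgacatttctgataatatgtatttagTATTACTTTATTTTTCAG

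The bases before the upstream site end in AG, as do those before the annotated one. In DHX35 a site 20 nt upstream of exon 13 was used at 27.7, 12 and 26.5% in K700E, against 4.03, 4.20 and 3.57% in WT (adjusted p = 0.011), and the annotated site at 72.3, 88 and 73.5%, against 96, 95.8 and 96.4% (adjusted p = 0.020, limma). A second DHX35 site stood at 17.7, 24.3 and 27.3% in K700E, against 0, 2 and 1.39% in WT (adjusted p = 0.013, limma). With only the DMSO samples in the fit, 1 helicase event was called and the DHX35 sites were not. The annotated-site call was also lost without WT replicate 1 or 3 or K700E replicate 1 or 3, at adjusted p of 0.054 to 0.074 (limma). Spread between the K700E samples was wide in DHX35, and the fewest reads in a sample were 50 and 63 for its sites and 44 for DHX29.

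Under H3B-8800 the DHX29 site stood at 18.9, 30.3 and 23.1% in K700E, against 15.4, 20.4 and 23.4% with DMSO, which did not pass the test (adjusted p = 0.47, limma). Other upstream sites were used more after H3B-8800 in K700E cells. In DHX38 a site 21 nt upstream of exon 19 stood at 34.4, 34.5 and 33.4% in K700E with H3B-8800, against 4.67, 4.70 and 5.21% with DMSO, and at 6.47, 3.90 and 4.80% in WT with H3B-8800, against 0, 0.2 and 0.201% with DMSO. In DDX27 a site 15 nt upstream of exon 7 stood at 18.2, 20.5 and 17.3% in K700E with H3B-8800, against 3.47, 4.10 and 3.02% with DMSO, and at 0% in all 3 WT samples with H3B-8800, against 0, 0 and 0.14% with DMSO. Here only the K700E samples with H3B-8800 were above 4.10%.

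DHX29 used a site 21 nt upstream of exon 6 at 48.2, 50.9 and 50% in K700E with H3B-8800, against 1.65, 2.25 and 2.38% with DMSO, and at 12.2, 18.3 and 14.1% in WT with H3B-8800, against 0.911, 0.929 and 0.64% with DMSO. DDX56, a large subunit assembly helicase, used a site 13 nt upstream of exon 11 at 46.5, 45.9 and 47.4% in K700E with H3B-8800, against 4.97, 4.26 and 3.47% with DMSO, and at 24, 25.8 and 25.4% in WT with H3B-8800, against 2.25, 1.19 and 2.3% with DMSO. The 2 genotypes' H3B-8800 samples did not overlap at any of these 4 sites. The sites were named because the fit on percentage points below called them, so this is not separate support. On the log-odds scale, the difference of the H3B-8800 effect between the genotypes was called for 0 helicase events (limma). Of all events 0.00917% were called, and 80 helicase events had an unadjusted p under 0.05. Fitted on percentage points, the difference was called for 9 events, these 4 sites among them, so the answer depends on the scale. On the log-odds scale, K700E minus WT, it was 2.215 log2 for DDX27, 1.265 for DHX29 and 0.1821 for DDX56. For DHX38 it was −1.297 log2, the opposite direction to its difference in points.

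**Figure D4:**
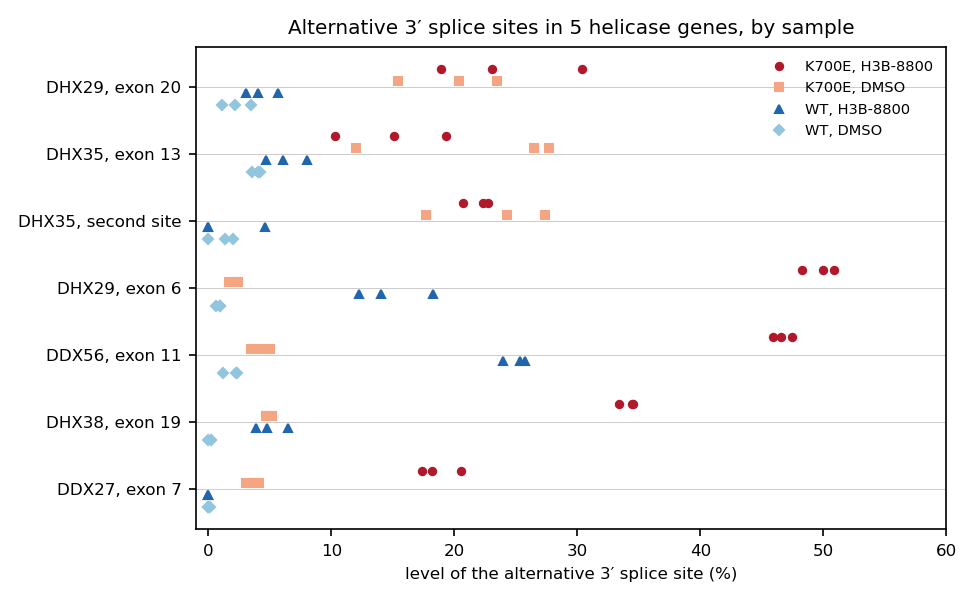
Level in percent of 7 alternative 3′ splice sites in 5 helicase genes, all upstream of an annotated site except the second DHX35 site, whose position relative to one is not given here, with 1 point per sample and 4 groups of 3. The first 3 sites are higher in K700E than in WT with DMSO, and the last 4 reach 17.3 to 50.9% in K700E samples with H3B-8800.

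Spliced reads per gene, the exon-exon reads of all its annotated introns in RPM, were tested in 48 of the 51 genes. A retained intron gives no such read, and a skipped exon leaves out the junctions of the introns on either side. The measure thus falls with retention and skipping as well as with RNA level. With only introns away from called exons, 30 genes were called in K700E and 29 in WT. Fewer cells that express a gene and less of its RNA per cell cannot be told apart. The median of all genes moved by −0.22 log2 in K700E and −0.28 log2 in WT with H3B-8800, and log2 differences between H3B-8800 and DMSO below are given relative to it. The calls, however, test the difference before the median is taken off. In K700E 12 helicase genes rose and 18 fell, where 16.2% and 35.8% of all genes did, and in WT 11 rose and 19 fell, where 18.5% and 40.8% did. A called gene can thus lie near the median: DDX5 fell by −0.36 log2 in K700E, which is −0.14 log2 relative to it. Scaled to the median log ratio, the split was 18 to 12 in K700E and 20 to 15 in WT, so the balance of directions rests on the scaling. With the culture as a replicate block, 16 rose and 22 fell in K700E, and 17 rose and 24 fell in WT.

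Among the genes that passed the test, DHX36 fell most, to 67.8, 56.7 and 60.9 RPM in K700E with H3B-8800, against 164, 140 and 155 with DMSO, and to 40.5, 47.7 and 48.2 in WT with H3B-8800, against 133, 132 and 133 with DMSO. This is −1.09 log2 in K700E and −1.27 log2 in WT relative to the median. DDX1 (−0.72 and −0.96), DDX50 (−0.71 and −0.79), DDX19A (−0.53 and −0.77) and DDX23 (−0.61 and −0.58) fell as well. DHX58, LGP2 of the RIG-I pathway, was lower at 1.06 to 3.34 RPM in K700E with H3B-8800, against 2.80 to 6.42 with DMSO, and at 2.05 to 2.13 in WT with H3B-8800, against 3.78 to 5.07 with DMSO. Its call was lost in WT when any 1 of the 6 samples was left out, and in K700E without 4 of the 6 in turn.

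DDX47 rose to 141, 147 and 148 RPM in K700E with H3B-8800, against 77.5, 78.3 and 81.7 with DMSO, and to 181, 171 and 178 in WT with H3B-8800, against 84.1, 82 and 80.7 with DMSO. This is 1.10 log2 in K700E and 1.38 log2 in WT relative to the median. DDX6 (1.17 and 1.31 log2 relative to the median), DHX34 (1.14 and 1.28), DDX20 (0.63 and 1.02) and DDX56 (0.67 and 0.77) rose as well. RIG-I stood at 28, 19.6 and 13 RPM in K700E with H3B-8800, against 12.7, 5.64 and 5.71 with DMSO, and at 17.2, 21.9 and 24.1 in WT with H3B-8800, against 8.06, 9.47 and 9.66 with DMSO. Between the genotypes in DMSO only DHX9 was called, at 992, 928 and 985 RPM in K700E, against 1119, 1155 and 1148 in WT (−0.24 log2, or −0.31 log2 relative to the median of all genes in that comparison; adjusted p = 0.029, limma), where 4.86% of all genes were called. This call was lost when any 1 of the 6 samples was left out. The difference of the H3B-8800 effect was called for 0 genes (limma; 8 had an unadjusted p under 0.05), where 0.0491% of all genes were, and for 4 with the replicate block.

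**Figure D5:**
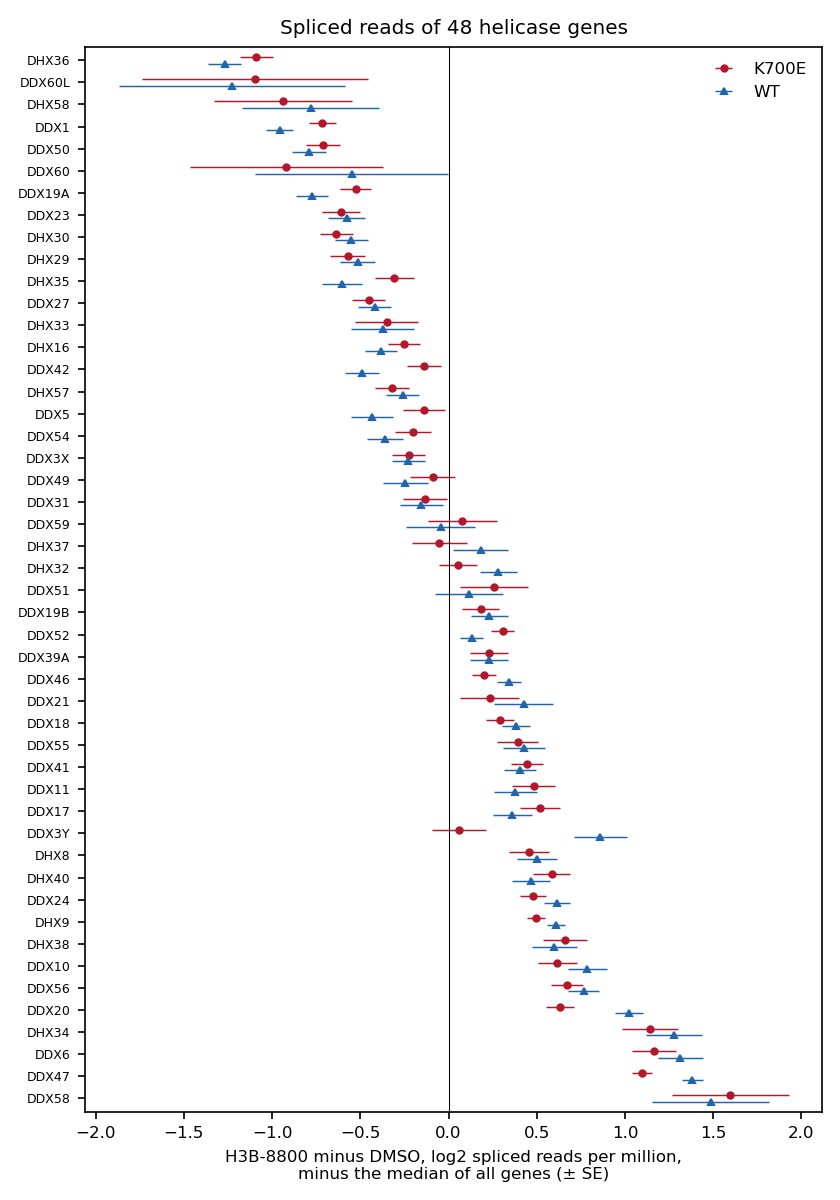
Log2 difference in spliced RPM between H3B-8800 and DMSO samples, minus the median of all genes, for 48 helicase genes in K700E and WT, with bars of ± 1 SE. Of the genes that fell, DHX36 lies lowest in both genotypes, and RIG-I (DDX58) lies highest; DDX60L, which did not pass the test, lies at −1.10 in K700E and −1.23 in WT.

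Other RNA helicases and helicase partners were set beside the family. Of 20 helicases without a DDX or DHX symbol, 18 had tested events, with 123 of 461 called in K700E and 143 in WT. Their median exon difference was −7.06 and −7.11 points. For 27 cofactors, such as G-patch proteins that activate DEAH helicases, 133 of 444 events were called in K700E and 138 in WT, with median exon differences of −7.01 and −6.50 points. Introns rose in 50 and 58 of 195 cases in the first list and in 60 and 60 of 196 in the second. Of spliced reads per gene, 2 rose and 6 fell in K700E and 3 and 7 in WT among 18 other helicases, and 6 rose and 11 fell in K700E and 7 and 12 in WT among 27 cofactors. Over the whole table, 31.3% of events were called in K700E and 32% in WT, and 31.6% and 31.9% of introns rose. In spliced reads, 16.2% of all genes rose and 35.8% fell in K700E, and 18.5% and 40.8% in WT.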

How the data were processed

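RNA from 12 MEC1 samples was analysed from the deposited table of splicing events. The authors deposited inclusion levels in percent, and a text column of read numbers per event. The build is hg38, per the submitters' processing notes, which also name cutadapt 2.4. The aligner is not given in the sources used here. Columns of merged runs were used, and 36 columns of single runs were not. Levels recomputed from the reads differed by over 1 point in 0 of 4598029 values. Introns with unbalanced junction reads in more than 6 samples and the first site of each alternative site event were left out. Log-odds of inclusion reads, with 0.5 reads added, were fitted with limma 3.58.1 (R 4.3.3) over all events as 4 groups, two-sided, with Benjamini-Hochberg adjustment. Spliced reads, scaled to RPM, were fitted likewise for genes with a mean of 50 or more reads. Both fits were tested on simulated data. Labels show the same culture name in H3B-8800 and DMSO samples, so replicate numbers pair these within a genotype; deviations from the group means correlated at 0.658 to 0.925 for spliced reads and at 0.015 to 0.070 for events. Each gene is named by the event with the largest mean H3B-8800 difference, and by a second of another type where called; upstream 3′ sites under H3B-8800 were chosen after their values were seen. The members and lists were chosen with earlier results of these data known. Tests cover the spread between these samples, and PCR reads are not independent molecules. Alternatives for the sample means over helicase events were chosen after seeing the data. The others changed read minimum, pseudocount, weights, scale, scaling, filters, samples in the fit and replicate block.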

Additional observations from a re-analysis of the deposited data

Results flagged for a closer look

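The difference of the H3B-8800 effect between K700E and WT passed a test under 1 of the alternative fits for the following results, and for none of them on the log-odds scale or without the block. On percentage points, K700E minus WT, it was 33.59 points for the DHX29 site upstream of exon 6 and −33.47 points for the annotated site of the same exon, 24.31 points for the DHX38 site, 19.29 points for the DDX56 site and 15.19 points for the DDX27 site. It was 18.94 points for retention of DHX29 intron 5, whose exon-side boundary lies inside the 21 bases that the upstream site adds. It was −13.48 points for DHX37 intron 11, 13.55 points for DDX31 exon 15, and 10.04 points for DDX3Y intron 14. With the culture as a replicate block, the difference in spliced reads, not taken relative to the median of all genes, was 0.3013 log2 for DDX1, −0.7424 for DDX3Y, 0.4097 for DDX42 and 0.3558 for DDX5. Adjusted p in these fits ran up to 0.0441, and on the log-odds scale or without the block from 0.31 upward (limma).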

How the results depend on the processing

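No event named in the text reversed its direction in percentage points, and no named gene reversed in spliced reads. Events were compared in points only, which a change of scale, pseudocount, weights or block cannot alter. For the DHX38 site the difference of the H3B-8800 effect was 24.31 points but −1.297 log2 on the log-odds scale, the opposite direction. With a size threshold of 20 points the H3B-8800 calls were 152 events in K700E (70 exons lower, 73 introns higher) and 158 in WT (75 exons lower, 75 introns higher), and 1 event between the genotypes; fewer events meet the size. On percentage points 2 events were called between the genotypes and 9 for the difference of the H3B-8800 effect, and with only the groups of the contrast 1 event and 0 genes between the genotypes; the cause was not tested. Scaling by the median log ratio called 20 genes higher in WT and 4 genes between the genotypes. With the replicate block, spliced reads called 17 genes higher in WT, 6 between the genotypes, where the number is only a number, and 4 for the difference; the block changed no other count by over 1.5 times. Of the single events and genes, 39 event values and 3 gene values lost their call under an alternative, and 7 and 16 when 1 sample was left out. Leaving out 1 sample gave 278 to 286 events in K700E, 280 to 289 in WT, 3 to 4 between the genotypes, and 0 genes in spliced reads between the genotypes. Depth limits events near 20 reads, and DHX58, DDX60 and DDX60L in spliced reads.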

Other observations

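An alternative 3′ site of DDX3X that moves exon 14 by 3 nt stood near 25% in some samples and near 75% in others: 25.8, 75.3 and 24% in K700E with H3B-8800, 78.6, 70.8 and 72% in K700E with DMSO, 23.6, 25.9 and 76% in WT with H3B-8800, and 26.2, 77.8 and 77% in WT with DMSO. Both levels occurred among the samples of each group except K700E with DMSO, where all 3 were high. How reads were assigned between sites this close is not given in the sources used here, and its part in these levels was not tested. It was the DDX3X event with the largest mean H3B-8800 difference and did not pass the test (adjusted p = 0.13 in K700E and 0.36 in WT, limma).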
